A study of Mus musculus with 15 samples.

Results

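The cultures examined here were labelled as mammary epithelial cells, and 10 genes known for their use in adipocytes were followed in them as a sign of RNA from cells other than epithelium. The genes were Adipoq, Plin1, Lpl, Lep, Fabp4, Cidec, Pparg, Cd36, Retn and Cfd, taken as the rows of the deposited count table whose gene name equals one of these symbols. All 10 were found among the 54456 genes of the table. A filter on low counts left 18140 genes for testing, among them 9 of the 10, with Retn removed. A gene that passes such a filter through the group in which it is high is the more likely to differ, so the 9 that passed are described and not counted as support.

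RNA was measured in wild-type (WT) mouse mammary gland organoids, small clumps of ducts grown outside the animal, kept in DMEM/F12 medium with 1% L-Ala-Gln, 1% ITS (insulin, transferrin and selenium) and 1% P/S (antibiotics) and set to migrate beside beads soaked beforehand in FGF10, a fibroblast growth factor that attracts mammary epithelium, or in bovine serum albumin (BSA), the control protein. The 5 groups of 3 libraries were the organoids at 0 h, beside BSA beads at 36 h and at 72 h, and beside FGF10 beads at 36 h and at 72 h. All groups shared the genotype, tissue and medium, and the 0 h group carries no bead label. The titles of the 72 h FGF10 libraries read FGF0 and their treatment label reads FGF10, which was followed. Strain, age, number of mice and the purity of the organoids are not given in the sources used here. Nothing in the labels says that the libraries of a group came from separate cultures, so the p-values below measure the spread between these libraries, which may be technical. The series asked whether epithelium goes through an epithelial-mesenchymal transition during collective migration, and a share of RNA from other cells bears on how such profiles are read.

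White adipocytes store triglyceride in a single large lipid droplet and make up most of the fat pad in which mammary ducts grow. They take up fatty acids that lipoprotein lipase frees from circulating lipoproteins, coat the droplet with perilipin and CIDE proteins, and secrete hormones such as adiponectin and leptin. Their formation and upkeep depend on the nuclear receptor PPARG, which acts on many of these genes. Several of the genes are also used elsewhere: Fabp4 and Cd36 in capillary endothelium and macrophages, Lpl in macrophages and in the mammary gland itself, and Pparg in macrophages and some epithelia. Adipoq and Plin1 are the most specific to adipocytes among them.

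Depth ran from 11965322 to 24261233 counts per library. The 12 epithelial markers summed to between 18790 and 41934 CPM (the gene's count scaled to a common library size), with 0 of them at 0 in any library, so the labelled cell type was present throughout. The libraries BSA 72 h replicate 2_1 and 2_2 bear 1 number between them. A chi-square of their counts averaged 4.62 a gene (16964 genes), where the closest other pair of BSA 72 h libraries averaged 10.6. They were kept as separate libraries, and whether they share a culture was not tested. In bulk RNA such as this, fewer adipocytes and less of these RNAs in each cell cannot be told apart.

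The adipokines, the hormones that adipocytes secrete, were measured at low levels, apart from Adipoq in the BSA cultures at 72 h. Adipoq, which encodes adiponectin, stood at 21.5, 25 and 17.1 CPM in the 3 BSA 72 h libraries. It stood at 0.718, 0 and 0 CPM at 0 h, at 0, 0.280 and 0 with BSA at 36 h, at 0.0653, 0 and 0 with FGF10 at 36 h, and at 2.76, 0 and 0 with FGF10 at 72 h. Adipoq thus had counts in 7 of 15 libraries, and each of the 3 BSA 72 h libraries lay above every other. Lep, which encodes the satiety hormone leptin, was at 0.634, 0.774 and 0.495 CPM at 0 h, at 0.357, 0.616 and 0.773 with BSA at 36 h, and at 1.44, 1.30 and 0.635 with BSA at 72 h. With FGF10 it was at 0 in all 3 libraries at 36 h, and at 0.192, 0 and 0 CPM at 72 h. The Lep levels of the 0 h and BSA groups overlapped, and every FGF10 library lay below all of them.

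Retn, which encodes resistin, a hormone of mouse fat, reached 1.59, 0.707 and 0.404 CPM with BSA at 72 h. Elsewhere it ranged from 0 to 0.380 CPM, with 6 of the 15 libraries at 0, so that here too the BSA 72 h libraries were the highest 3. Cfd encodes adipsin, the complement protease that adipocytes secrete. It behaved differently, with its highest level of 5.49 CPM in 0 h replicate 1, where the other 0 h libraries had 0.484 and 0.275. Cfd then stood at 0.238, 0 and 0 CPM with BSA at 36 h and at 1.08, 1.59 and 1.91 with BSA at 72 h. With FGF10 it stood at 2.29, 0 and 0 CPM at 36 h and at 0.0642, 0 and 0 at 72 h, so that in each FGF10 group the counts came from a single library.

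The lipid droplet coat genes followed Adipoq. Plin1 encodes perilipin 1, which guards the adipocyte droplet against lipases. It was at 8.83, 9.25 and 11.9 CPM with BSA at 72 h, at 0.535, 1.79 and 0.0595 with BSA at 36 h, and at 0.0845, 0.0968 and 0.220 at 0 h. With FGF10 it was at 0.0653, 0 and 0.506 CPM at 36 h and at 1.35, 0 and 0 at 72 h. Cidec, whose protein fuses small droplets into large ones, was at 2.10, 2.59 and 1.04 CPM with BSA at 72 h and at no more than 0.588 CPM in any other library, with 8 libraries at 0. For both genes the BSA 72 h libraries were the 3 highest of the 15.

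The genes of fatty acid supply were found in every library. Lpl, the lipase that frees fatty acids from lipoproteins, stood at 107, 110 and 95.1 CPM with BSA at 72 h, against 15.7, 6.48 and 4.02 at 0 h. It stood at 14.9, 40.5 and 28.0 CPM with BSA at 36 h, at 10.5, 16.4 and 15.1 with FGF10 at 36 h, and at 21.8, 16.4 and 8.77 with FGF10 at 72 h. The BSA 72 h libraries were again the highest 3, here over a level that was never near 0. Cd36, a membrane carrier of fatty acids, was at 83.0, 53.6 and 10.9 CPM at 0 h and at 81.6, 80.6 and 67.5 with BSA at 72 h. It was at 5.59, 30.8 and 24.2 CPM with BSA at 36 h, at 3.59, 11.7 and 11 with FGF10 at 36 h, and at 20.8, 10.9 and 4.57 with FGF10 at 72 h. Its 0 h range held all 3 of the BSA 72 h levels.

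Fabp4, the fatty acid carrier of the adipocyte cytoplasm, reached the highest CPM of the 10 genes. It was at 525, 444 and 57.1 CPM at 0 h, at 15.5, 32.3 and 0.297 with BSA at 36 h, and at 269, 262 and 288 with BSA at 72 h. With FGF10 it was at 1.63, 0.439 and 4.74 CPM at 36 h and at 41.7, 0.169 and 0.122 at 72 h. Fabp4 was therefore high in 0 h replicates 1 and 2 and again with BSA at 72 h, and FGF10 72 h replicate 2 stood apart from its group. Pparg, the regulator, ranged over the fewest fold of the 10, from 0.980 CPM in FGF10 36 h replicate 1 to 17.1 in BSA 72 h replicate 3. Its means were 4.20 ± 0.879 CPM at 0 h, 7.99 ± 3.40 and 14.5 ± 2.30 with BSA at 36 h and 72 h, and 3.25 ± 2.06 and 5.09 ± 2.36 with FGF10 at these times (SD, n = 3).

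**Figure D1:**
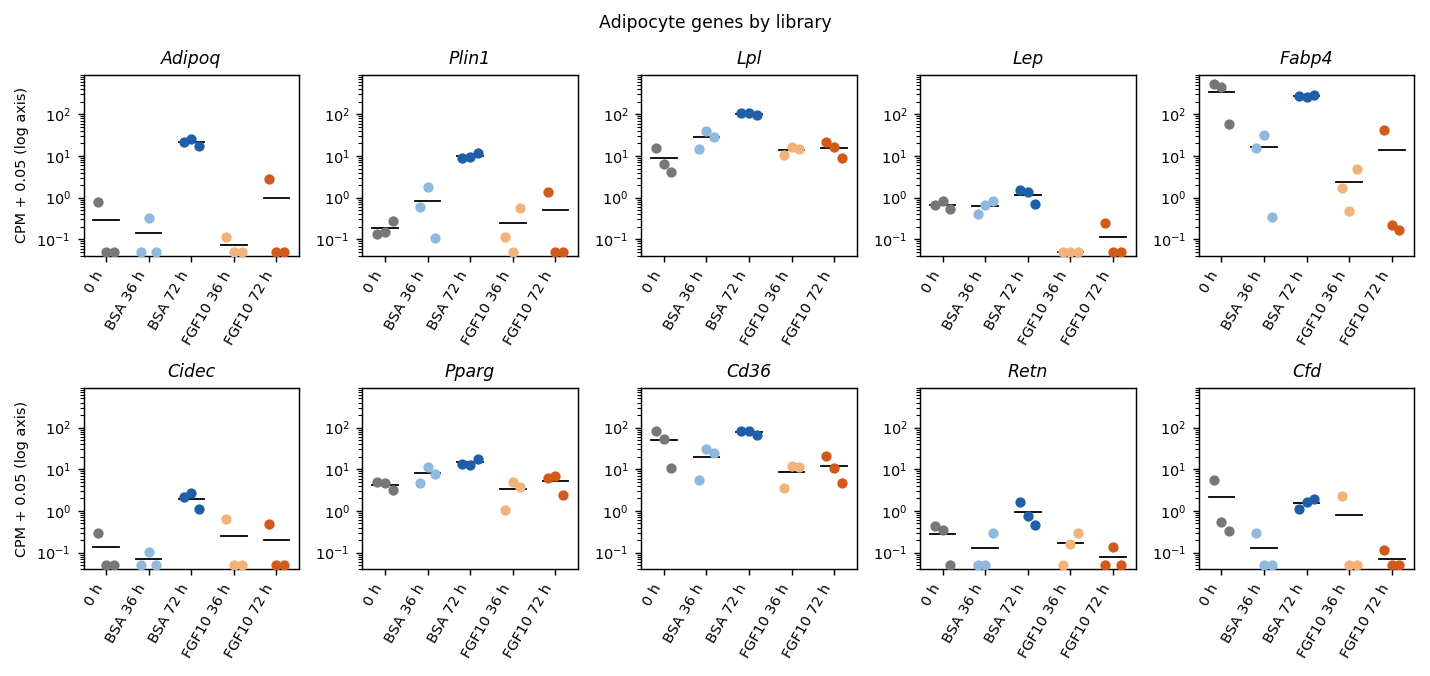
Level of each of the 10 adipocyte genes in each library, as CPM plus 0.05 on a log axis, with 1 point per library and a bar at the group mean. BSA 72 h stands above every other group for Adipoq, Plin1, Lpl, Cidec, Pparg and Retn, whereas Fabp4, Cd36 and Cfd also reach their high levels at 0 h.

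Scaled by exon length, as RPKM (CPM per kilobase of exon), the order of levels in the BSA 72 h group was Fabp4, Cd36, Adipoq, Lpl, Pparg, Plin1, Cfd, Cidec, Retn and Lep. Fabp4 had a mean of 60.8 RPKM (58.4 to 64.1), Cd36 21.3 (18.8 to 22.7), Adipoq 15.3 (12.4 to 18.1), Lpl 9.94 (9.08 to 10.5) and Pparg 4.92 (4.37 to 5.81), and the ranges of these neighbours did not overlap. Plin1 had 2.15 RPKM (1.9 to 2.56), Cfd 1.65 (1.17 to 2.07), Cidec 1.03 (0.560 to 1.40), Retn 0.570 (0.256 to 1.01) and Lep 0.335 (0.189 to 0.428). Each of these last 5 overlapped its neighbour in the order. The exon length of Fabp4 in the table, 4489 bases, equals the whole span of the gene, introns included, so its RPKM is too low against the others.

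On the assembly GRCm39, as the table gives it, Adipoq lies on chromosome 16 from 22965286 to 22976778 (plus strand), Plin1 on chromosome 7 from 79369966 to 79382651 (minus), Lpl on chromosome 8 from 69333143 to 69360100 (plus) and Lep on chromosome 6 from 29060219 to 29073876 (plus). Fabp4 lies on chromosome 3 from 10269148 to 10273636 (minus) and Cd36 on chromosome 5 from 17986688 to 18093799 (minus). Cidec, from 113401595 to 113412721 (minus), and Pparg, from 115337912 to 115467360 (plus), share chromosome 6 with Lep. Retn lies on chromosome 8 from 3705770 to 3710110 and Cfd on chromosome 10 from 79726687 to 79728489, both on the plus strand. The counts cover the exons of each gene, and 0 other genes of the table overlap those of any of the 10.

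The comparison of FGF10 with BSA at 72 h asked which genes differ between the beads once migration has gone on longest. Adipoq fell to 0.920 ± 1.59 CPM with FGF10 from 21.2 ± 3.98 with BSA (SD, n = 3), 22.1-fold lower, a log2 difference of -4.47 ± 1.12 (SE) with an adjusted p of 0.0384 in edgeR's quasi-likelihood F test with Benjamini-Hochberg adjustment over all genes tested. Plin1 fell 21-fold (log2 difference -4.39 ± 1.08, adjusted p = 0.0343) and Lpl fell 6.66-fold (log2 difference -2.74 ± 0.49, adjusted p = 0.0111). Lep fell from 61 counts over the 3 BSA libraries to 3 counts with FGF10, a ratio of 16.6 in CPM (95% exact interval from 5.41 to 82.6, for counting error alone) with an adjusted p of 0.0162. The genes that passed thus cover 2 adipokines, a droplet coat protein and the lipase.

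The remaining 5 tested genes did not pass the test at 72 h. Fabp4 had a mean of 14 ± 24 CPM beside FGF10 beads and of 273 ± 13.1 beside BSA beads (log2 difference -4.27 ± 1.68, adjusted p = 0.150). Cidec had a log2 difference of -3.54 ± 1.15 (adjusted p = 0.0812), Cd36 of -2.66 ± 0.81 (adjusted p = 0.0760) and Pparg of -1.52 ± 0.48 (adjusted p = 0.0776). Cfd had 1 count beside FGF10 beads and 81 beside BSA beads, giving a ratio of 66.0 (95% exact interval 11.5 to 2640; adjusted p = 0.140). Retn, which the filter removed, had 1 count against 50, giving a ratio of 40.8 (95% exact interval 6.99 to 1642), and in a fit without the filter its adjusted p was 0.0218. So 4 of the 9 were called lower and 0 higher, where 2.98% of all genes tested were called lower and 3.01% higher. The median log2 difference was -3.91 over the 9, which is the fitted value of Lep, against -0.0071 over all genes tested. For all 10 genes every FGF10 library lay below every BSA library at 72 h, which held for 21.7% of the genes tested.

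These calls are sensitive to single libraries. Without BSA 72 h replicate 2_1 the adjusted p was 0.0977 for Adipoq, 0.0842 for Plin1 and 0.0575 for Lep, and without replicate 2_2 it was 0.111, 0.0886 and 0.0595. Without BSA 72 h replicate 3 it was 0.0931 for Adipoq and 0.0998 for Plin1, and without FGF10 36 h replicate 1, which enters through the shared spread, 0.0602 for Adipoq. Without FGF10 72 h replicate 3 it was 0.0950 for Adipoq, 0.0949 for Plin1 and 0.0541 for Lep, and without replicate 4 it was 0.136, 0.140 and 0.0916, and 0.0609 for Lpl. With replicates 2_1 and 2_2 summed, Lpl alone was called, and the adjusted p was 0.103 for Adipoq, 0.0849 for Plin1 and 0.0508 for Lep. The log2 differences stayed below 0 for all 9 genes in each of these fits. DESeq2's Wald test called 4 of the 9, Lpl, Lep, Pparg and Cd36, with adjusted p-values of 0.356 for Adipoq and 0.0515 for Plin1. In edgeR without the filter on low counts these were 0.0864 and 0.0925.

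**Figure D2:**
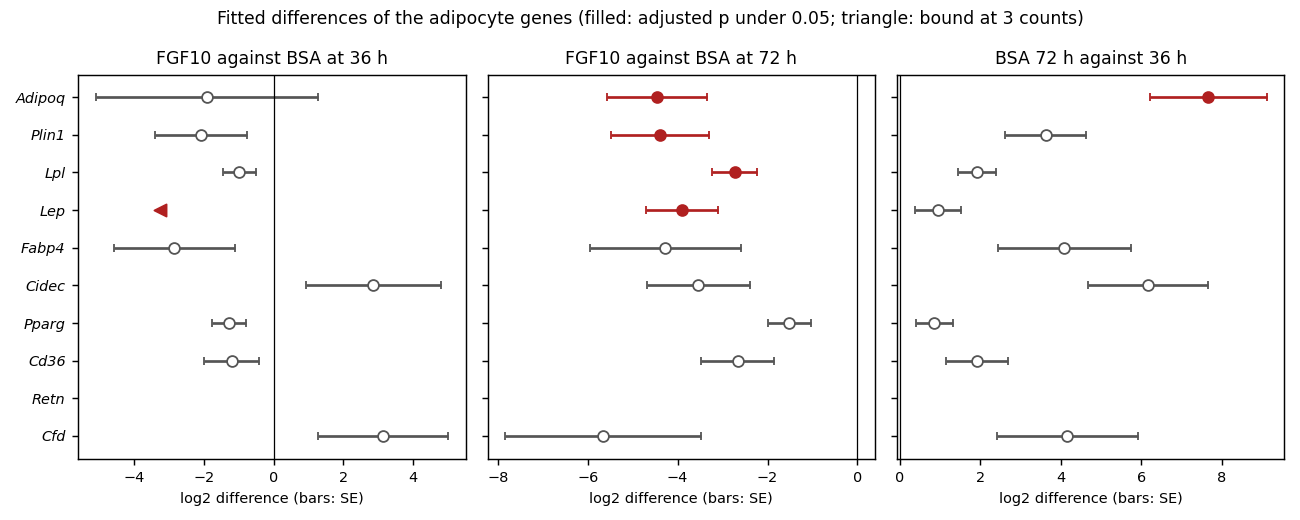
Fitted log2 difference of each adipocyte gene with its SE, for FGF10 against BSA at 36 h (left), FGF10 against BSA at 72 h (middle) and BSA at 72 h against 36 h (right). Filled symbols have an adjusted p under 0.05, the triangle for Lep at 36 h is a bound at 3 counts, Retn was not tested, and at 72 h all 9 fitted values lie below 0, from -5.66 for Cfd to -1.52 for Pparg.

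Within the FGF10 72 h group, all or nearly all counts of several genes lay in replicate 2. It held 43 of 43 counts of Adipoq, 21 of 21 of Plin1, 7 of 7 of Cidec, 3 of 3 of Lep and 650 of 654 of Fabp4. The other 2 libraries of the group held 0 counts of Adipoq, Plin1, Cidec, Lep and Cfd, 4 of Fabp4 and 1 of Retn, while Lpl had 338, Cd36 204 and Pparg 118. Against these 2 libraries alone, Adipoq was at least 199-fold, Plin1 at least 93.7-fold, Cidec at least 18-fold, Cfd at least 14.2-fold and Lep at least 10.7-fold lower than with BSA, taking 3 counts over both libraries as the floor. Fabp4 had an adjusted p of 0.0315 without replicate 2, and 5 of the 9 genes were called. Replicate 2 also had the highest sum of endothelial markers in its group, 41.6 CPM against 23.4 and 21.5, and of macrophage and leukocyte markers, 151 against 129 and 83.6. Its sums of fibroblast markers (459) and of the further adipocyte genes listed below (69.5) were under those of replicate 3 (518 and 78.6). The part of other cell types in these counts was not tested.

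The promoters of Lep, Plin1 and Adipoq, 3 genes that fell with FGF10 at 72 h, are shown because the regulators of fat cell formation are known to act at such regions. They run from 250 bases before to 50 after the gene's start and come from RefSeq on the assembly GRCm38.p6, which differs from that of the counts. Capitals mark matches to TTGCNNAA, a motif of the CEBP factors that act beside PPARG in fat cell formation, on either strand.
Lep promoter, chr6:29059971-29060270, plus strand: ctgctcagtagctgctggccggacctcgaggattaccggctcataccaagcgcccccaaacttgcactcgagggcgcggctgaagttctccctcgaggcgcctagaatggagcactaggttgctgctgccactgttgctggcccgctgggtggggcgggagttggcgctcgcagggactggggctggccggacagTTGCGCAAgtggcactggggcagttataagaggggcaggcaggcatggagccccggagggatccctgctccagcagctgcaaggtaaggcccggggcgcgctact
Plin1 promoter, chr7:79732727-79733026, minus strand: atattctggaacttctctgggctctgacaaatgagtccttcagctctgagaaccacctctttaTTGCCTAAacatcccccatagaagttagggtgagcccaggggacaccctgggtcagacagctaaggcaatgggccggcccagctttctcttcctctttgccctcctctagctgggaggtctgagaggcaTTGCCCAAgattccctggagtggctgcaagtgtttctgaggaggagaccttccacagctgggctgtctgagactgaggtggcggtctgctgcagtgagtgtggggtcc
Adipoq promoter, chr16:23146286-23146585, plus strand: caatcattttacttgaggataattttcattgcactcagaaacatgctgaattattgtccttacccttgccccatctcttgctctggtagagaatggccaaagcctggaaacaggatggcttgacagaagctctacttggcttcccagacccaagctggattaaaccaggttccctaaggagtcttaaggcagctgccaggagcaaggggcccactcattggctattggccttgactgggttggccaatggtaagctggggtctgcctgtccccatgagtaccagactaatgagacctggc
The Lep window held the motif 55 bases before the start, where it reads alike on both strands, the Plin1 window held it 187 and 58 bases before the start, and the Adipoq window held no match. RefSeq gave 11 promoters for 8 of the 10 genes. TTGCNNAA was found on either strand in 4 of the 11 (those of Lep and Plin1, 1 of Cidec and 1 of Pparg), and in 10.8% of all 32851 promoters of this length. AGGTCA, the nuclear receptor site, was in 3 of the 11 (1 of Cd36 and 2 of Pparg) and in 16.3% of all, and the doubled form of it that PPARG binds with its partner RXR, the direct repeat 1 element, was in 0 of the 11 and 0.381% of all. TATAAA, the TATA box, was in 1 of the 11 and 13.6% of all. The motifs do not contain one another except that the doubled site can hold AGGTCA, and a match describes the letters only.

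At 36 h Lep was the only one of the 9 tested genes that passed between the beads. Lep had 0 counts in the 3 FGF10 libraries and 30 in the 3 BSA libraries, at least 9.59-fold lower with FGF10 at a floor of 3 counts over the group (adjusted p = 0.0230). This made 1 of 9 called lower and 0 higher, where 1.39% of all genes tested were called lower and 0.954% higher. Of the 10 genes, Lep was also the only one whose groups did not overlap, where 9.53% of genes tested were lower in every FGF10 library and 9.88% higher. With BSA 36 h replicate 2 left out Lep had an adjusted p of 0.0535, with BSA 36 h replicate 3 left out 0.0798, with FGF10 36 h replicate 1 left out 0.0572, and in a fit of the 36 h groups alone 0.104.

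The remaining genes did not pass at 36 h. Lpl had a mean of 14 ± 3.10 CPM beside FGF10 beads and of 27.8 ± 12.8 beside BSA beads (log2 difference -0.99 ± 0.47, adjusted p = 0.290), and Pparg had a log2 difference of -1.28 ± 0.49 (adjusted p = 0.173). Cd36 had a log2 difference of -1.20 ± 0.79 (adjusted p = 0.443), Plin1 of -2.08 ± 1.32 (adjusted p = 0.422) and Fabp4 of -2.84 ± 1.73 (adjusted p = 0.406). Cidec, with 9 counts with FGF10 and 1 with BSA, and Cfd, with 35 and 4, had fitted values above 0 that did not pass (adjusted p = 0.450 and 0.391), and all FGF10 counts of both genes came from replicate 1. Adipoq had 1 count with FGF10 and 5 with BSA. Retn, not tested, had 6 counts with FGF10 (0, 0.110 and 0.253 CPM) and 4 with BSA (0, 0 and 0.238 CPM), so that the groups overlapped. The median log2 difference of the 9 was -1.28, against 0.0016 over all genes tested, and was also -1.28 with Lep at its bound.

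The difference between the times was tested directly as the change of the FGF10 effect from 36 h to 72 h. None of the 9 genes passed in edgeR, where 0 genes of the 18140 did, a background of 0%, and 3 of the 9 had an unadjusted p under 0.05 (Lpl, Cidec and Cfd). DESeq2 called 0 of the 9 and 18 genes in all. The log2 change was -1.75 ± 0.67 for Lpl (adjusted p = 0.872), -2.31 ± 1.88 for Plin1 (adjusted p = 0.945) and -0.24 ± 0.68 for Pparg (adjusted p = 0.983). A larger difference at 72 h than at 36 h was therefore not shown for any of these genes.

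With BSA beads, Adipoq rose between the times. It went from 5 counts to 1139 over the 3 libraries, from 0.0934 ± 0.162 to 21.2 ± 3.98 CPM (log2 difference 7.67 ± 1.45, adjusted p = 0.0484). This was 1 of the 9 called higher, with 0.325% of all genes tested called higher and 0.143% lower. Adipoq kept the call in 8 of 21 other fits, with adjusted p from 0.00131 to 0.162. It was lost without BSA 36 h replicate 1 (0.0924), 2 (0.0997) or 3 (0.162), without BSA 72 h replicate 2_1 (0.139), 2_2 (0.162) or 3 (0.135), and, through the shared spread, without FGF10 36 h replicate 1 (0.0712) or 3 (0.0540) or FGF10 72 h replicate 3 (0.0514). It was also lost in edgeR without the filter (0.0642) and with replicates 2_1 and 2_2 summed (0.143), and in DESeq2's Wald test (0.124).

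In edgeR's fit of all 5 groups the other genes did not pass between 36 h and 72 h with BSA, though 9 of the 10 had every 72 h library above every 36 h library, which held for 14.3% of genes tested. Only Lep overlapped. DESeq2's Wald test called Lpl (adjusted p = 0.00147) and no other of the 9, and an edgeR fit of these 2 groups alone called Cidec (0.00426), Cfd (0.0191), Lpl (0.0426) and Plin1 (0.0438) beside Adipoq. For the beads at 72 h a fit of 2 groups alone called more genes over the whole table, as given below. Its calls are therefore not to be set against the shares of the main fit. Cidec had 1 count at 36 h and 103 at 72 h (ratio 98.6, 95% exact interval 17.3 to 3931, adjusted p = 0.0764). Lpl had a log2 difference of 1.91 ± 0.47 (adjusted p = 0.0933), Plin1 of 3.62 ± 1.00 (adjusted p = 0.123), Fabp4 of 4.09 ± 1.66 (adjusted p = 0.261) and Cd36 of 1.92 ± 0.78 (adjusted p = 0.260). Cfd had a log2 difference of 4.16 ± 1.75 (adjusted p = 0.272), Lep of 0.94 ± 0.58 (adjusted p = 0.442) and Pparg of 0.86 ± 0.46 (adjusted p = 0.378). Retn had 4 counts at 36 h and 50 at 72 h, with a log2 difference of 3.41 ± 1.03 in a fit without the filter (adjusted p = 0.145). The median of the 9 was 3.62, against -0.0050 over all genes tested.

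With FGF10 beads none of the genes passed between the times. Between 36 h and 72 h edgeR called 0 of the 9 genes, with 1 at an unadjusted p under 0.05 (Adipoq), and DESeq2 called 0, where edgeR called 346 genes, 1.91% of those tested. Lpl was at 14 ± 3.10 and 15.7 ± 6.55 CPM at the 2 times, and Cd36 at 8.76 ± 4.49 and 12.1 ± 8.17 (SD, n = 3). The 36 h and 72 h libraries overlapped in all 10 genes, where 11.2% of genes tested were higher in every 72 h library and 9.9% lower.

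Against the starting organoids, 5 of the 9 genes were higher in BSA cultures at 72 h, the adipokine Adipoq, both droplet coat genes, the lipase Lpl and the regulator Pparg. Adipoq rose by a log2 difference of 6.11 ± 1.26 (adjusted p = 0.00400), Plin1 by 6.13 ± 1.26 (adjusted p = 0.00336), Cidec by 4.06 ± 1.18 (adjusted p = 0.0208), Lpl by 3.55 ± 0.51 (adjusted p = 0.000361) and Pparg by 1.79 ± 0.48 (adjusted p = 0.0150). Of all genes tested 12.2% were called higher and 13% lower. The median log2 difference of the 9 was 1.79, against -0.018 over all genes tested. Every 72 h library lay above every 0 h library in 6 of the 10, which held for 21.9% of genes tested. Fabp4 (log2 difference -0.32 ± 1.45, adjusted p = 0.904), Cd36 (0.64 ± 0.75, adjusted p = 0.595), Lep (0.84 ± 0.58, adjusted p = 0.326) and Cfd (-0.52 ± 1.20, adjusted p = 0.802) did not pass. The call of Cidec was lost without 0 h replicate 2 (adjusted p = 0.0553), 0 h replicate 4 (0.0684), BSA 72 h replicate 2_1 (0.0528) or 2_2 (0.0612), and that of Pparg without 0 h replicate 4 (0.0584). The call of Cidec was also lost with replicates 2_1 and 2_2 summed (0.0517) and in DESeq2 (0.209), which did not call Adipoq either (0.0899), and without the filter Cidec had 0.0759 and Pparg 0.0597.

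At 36 h with BSA, 1 of the 9 was called higher than at 0 h and 0 lower. Of all genes tested 12.7% were called higher, a like share, and 14.4% lower. The called gene was Lpl, with a log2 difference of 1.64 ± 0.49 (adjusted p = 0.0252). That call was lost without 0 h replicate 2 (0.0819), 0 h replicate 4 (0.0717), BSA 36 h replicate 2 (0.0914) or BSA 36 h replicate 3 (0.0574), without the filter (0.0773) and in a fit of these 2 groups alone (0.115). Fabp4 (log2 difference -4.41 ± 1.68, adjusted p = 0.0740) and Cfd (-4.68 ± 1.72, adjusted p = 0.0621) did not pass in edgeR. DESeq2's Wald test called Fabp4 lower (0.0289). The median log2 difference of the 9 was -1.28 for BSA at 36 h against 0 h. With FGF10 at 36 h, 3 of the 9 fell against 0 h, with 20.5% of genes tested called lower and 19.3% higher. These were Lep, from 32 counts to 0 (at least 10.1-fold, adjusted p = 0.00143), Fabp4 (log2 difference -7.25 ± 1.98, adjusted p = 0.0133) and Cd36 (-2.48 ± 0.81, adjusted p = 0.0301). The Cd36 call was lost without any 1 of 5 libraries: 0 h replicate 1 (0.106) or 2 (0.0573), or FGF10 36 h replicate 1 (0.0916), 3 (0.0556) or 4 (0.0642). It was also lost without the filter (0.0752) and in a fit of these 2 groups alone (0.0753).

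With FGF10 at 72 h, 2 of the 9 were called lower than at 0 h and 0 higher. This is not far from the share of all genes tested, 16% called lower and 13.8% higher. Lep went from 32 counts to 3, a ratio of 8.96 (95% exact interval 2.80 to 45.7, adjusted p = 0.0151), and Cfd from 140 to 1, a ratio of 118 (95% exact interval 20.8 to 4679, adjusted p = 0.0433). The Lep call was lost without FGF10 72 h replicate 4 (0.0615). Without 0 h replicate 1, in which most of the Cfd of that group lay, its adjusted p was 0.255, and Cfd kept the call in 7 of 21 other fits. The Cfd call was also lost without any library of the BSA groups (0.0506 to 0.0593) or of FGF10 at 72 h (0.113 to 0.134). Fabp4 (log2 difference -4.60 ± 1.70, adjusted p = 0.0626) and Cd36 (-2.03 ± 0.79, adjusted p = 0.0764) did not pass for FGF10 at 72 h against 0 h. The median log2 difference of the 9 was 0.27. The comparisons with 0 h share their control libraries, and those with a BSA group share it with the comparison of beads.

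Fabp4 and Adipoq did not go together at 0 h. There were 731 Fabp4 counts for each Adipoq count in 0 h replicate 1, and in 0 h replicates 2 and 4 Fabp4 stood at 444 and 57.1 CPM with Adipoq at 0. In the BSA 72 h libraries the ratio was 12.5, 10.5 and 16.8, and in FGF10 72 h replicate 2 it was 15.1. BSA 36 h replicate 2 had 115 and FGF10 36 h replicate 1 had 25. Fabp4 made up 82.5%, 87.0% and 74.9% of the summed CPM of the 10 genes at 0 h, against 53.0%, 51.8% and 57.5% with BSA at 72 h.

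Fabp4 is also a gene of capillary endothelium, and markers of that cell type were present in the same libraries. The 12 endothelial markers summed to 286, 419 and 88.5 CPM at 0 h, to 35.8, 88.0 and 32.5 with BSA at 36 h, and to 105, 106 and 251 with BSA at 72 h. With FGF10 they summed to 17.5, 21.9 and 40.2 CPM at 36 h and to 41.6, 23.4 and 21.5 at 72 h. The 0 h library with the least Fabp4, replicate 4, also had the least endothelial RNA of its group. Replicate 1 of 0 h had more Fabp4 than replicate 2, 525 against 444 CPM, with the smaller endothelial sum. BSA 72 h replicate 3, with the sum of 251, had Fabp4 at 288 CPM, where replicates 2_1 and 2_2 had 269 and 262. None of the 12 markers was at 0 in any 0 h or BSA 72 h library. The part of endothelial cells in the Fabp4 level was not tested.

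**Figure D3:**
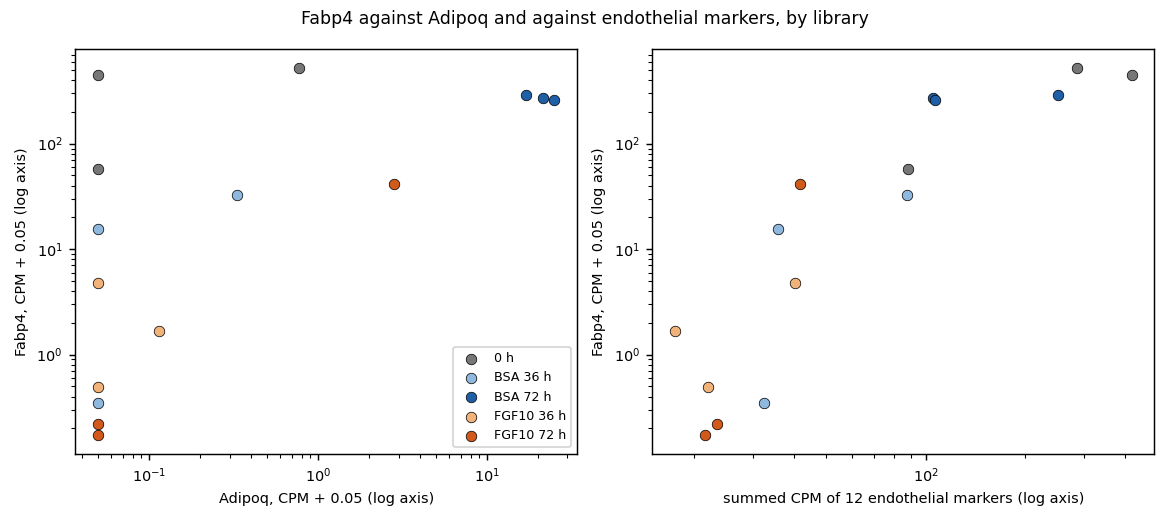
Fabp4 in each of the 15 libraries against Adipoq (left) and against the summed CPM of 12 endothelial markers (right), on log axes, with 0.05 CPM added to single genes. Replicates 1 and 2 of 0 h lie at high Fabp4 with Adipoq at or near 0 on the left, and at the upper right with BSA 72 h on the right. Replicate 4 of 0 h lies lower, with Fabp4 at 57.1 CPM and an endothelial sum of 88.5 CPM.

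Without Fabp4, the other 9 genes had a sum of 213 to 244 CPM in the BSA 72 h libraries, against 19.1 to 111 at 0 h, 26.3 to 85.4 with BSA at 36 h, 18.1 to 33.2 with FGF10 at 36 h and 15.7 to 53.6 with FGF10 at 72 h. The BSA 72 h group therefore stood above every other library by this sum, whereas the sum with Fabp4, 500 to 507 CPM, lay within the 0 h range of 76.3 to 636.

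Other genes of adipocytes fell in part. Of a list of 20 further adipocyte genes 16 were tested, and at 72 h 4 fell with FGF10 and 0 rose, with a median log2 difference of -1.07. They were Adrb3, the beta 3 adrenergic receptor of fat (0.339 ± 0.235 against 3.56 ± 0.720 CPM, log2 difference -3.30 ± 0.72, adjusted p = 0.0177), Aoc3, an amine oxidase of the adipocyte surface (-3.32 ± 0.79, adjusted p = 0.0295), Plin4, a droplet coat protein (-3.19 ± 0.86, adjusted p = 0.0416), and the transcription factor Klf15 (-2.20 ± 0.60, adjusted p = 0.0433). With BSA from 36 h to 72 h 1 of the 16 rose, which was Adrb3 (log2 difference 5.09 ± 0.84, adjusted p = 0.0313), where 0.325% of all genes tested were called higher. For FGF10 against BSA at 72 h the shares of all genes tested were 2.98% called lower and 3.01% higher. They are the background for the edgeR counts of this list and of those below. The sum of this list was 110 to 126 CPM in the BSA 72 h libraries and 54.4 to 78.6 with FGF10, while the starting organoids had more, 144 to 216 CPM.

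Genes of lipid droplets and triglyceride metabolism, which most cells use, had 4 of 16 lower with FGF10 at 72 h and 0 higher, with a median of -0.47. Acsl1, which activates fatty acids, had a log2 difference of -1.12 ± 0.24 (adjusted p = 0.0178), Hilpda, a lipase inhibitor induced by low oxygen, of -1.33 ± 0.33 (adjusted p = 0.0340), the acyltransferase Gpat3 of -1.30 ± 0.34 (adjusted p = 0.0353) and the lipase inhibitor G0s2 of -2.16 ± 0.58 (adjusted p = 0.04996). Of 14 genes of adipocyte precursors 13 were tested and edgeR called 0, with 5 at an unadjusted p under 0.05 and 5 called by DESeq2, and the median was -0.99. The summed CPM of these precursor genes went the other way at 72 h, at 2252 to 2365 with FGF10 and 1359 to 1519 with BSA. Their most abundant, Ly6a, a surface antigen of stromal and epithelial progenitors, was at 1352 ± 159 CPM with FGF10 and 817 ± 144 with BSA (log2 difference 0.73 ± 0.48, adjusted p = 0.389), and the transcription factor Cebpb had 0.38 ± 0.25 (adjusted p = 0.375). Fabp5, described below, is also in this list and was higher on average with FGF10. Such abundant genes weigh heavily in the sum, whereas the median of the list was below 0.

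The sums of the macrophage, endothelial and fibroblast markers moved with the adipocyte genes at 72 h, unlike that of the precursor genes. By median log2 difference the precursor genes, at -0.99, stood near the fibroblast markers, at -1.09. The summed CPM of macrophage and leukocyte markers was 363 to 438 with BSA and 83.6 to 151 with FGF10, and 6 of 10 tested fell (median -1.77). Among them were the macrophage receptor Adgre1 (log2 difference -2.26 ± 0.43, adjusted p = 0.00984), the growth factor receptor Csf1r (-1.51 ± 0.31, adjusted p = 0.0126), the leukocyte antigen Ptprc (-2.25 ± 0.47, adjusted p = 0.0144) and the Fc receptor chain Fcer1g (-1.82 ± 0.39, adjusted p = 0.0176). Of the 12 endothelial markers edgeR called 2 lower (median -3.56), Pecam1, an adhesion molecule (-3.46 ± 0.84, adjusted p = 0.0340), and Vwf, the clotting glycoprotein (-1.85 ± 0.50, adjusted p = 0.0498). In edgeR 10 of these 12 had an unadjusted p under 0.05, and DESeq2 called 5. Of the 12 macrophage and leukocyte markers, Mrc1 and Itgam were too low to test.

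The summed CPM of fibroblast markers was 717 to 885 with BSA at 72 h and 255 to 518 with FGF10. Of the 12, edgeR called 1 higher with FGF10 and 0 lower (median -1.09), the called gene being the matrix gene Fbln1 (log2 difference 1.62 ± 0.32, adjusted p = 0.0121). In edgeR 6 of the 12 had an unadjusted p under 0.05, and DESeq2 called 2. Of 7 tested pericyte markers edgeR called 0, with 4 at an unadjusted p under 0.05 and 2 called by DESeq2 (median -1.50). The most abundant were Notch3 at -0.45 ± 0.16 (adjusted p = 0.111) and Mcam at -0.41 ± 0.27 (adjusted p = 0.373), both nearer 0 than the median. Of 4 tested muscle markers edgeR and DESeq2 called 0, with 1 at an unadjusted p under 0.05 (median 0.32). The most abundant, Mb at -0.63 ± 0.22 (adjusted p = 0.0947) and Mylpf at -0.18 ± 0.35 (adjusted p = 0.805), lay below 0, unlike the median. Of 6 tested Schwann cell markers Pmp22, also used by other cells, fell (-1.35 ± 0.19, adjusted p = 0.00221), and the list's median was -0.38. The share of counts from mitochondrial genes also stood apart, at 4.55%, 4.49% and 3.90% with FGF10 at 72 h against 2.55%, 2.21% and 2.60% with BSA, without overlap. The part of these cell types and of the mitochondrial share in the adipocyte result was not tested.

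The sum of the epithelial markers went the other way. It was 18790 to 20653 CPM in the BSA 72 h libraries and 34097 to 40432 with FGF10. Krt14 weighed heavily in it, with a mean of 3666 CPM with BSA and 11960 with FGF10. Of the 12 markers 8 did not pass, 0 fell and 4 rose with FGF10 (median 0.34). These were the keratins Krt14 (log2 difference 1.71 ± 0.19, adjusted p = 0.000593), Krt5 (1.24 ± 0.15, adjusted p = 0.000610), Krt17 (1.87 ± 0.29, adjusted p = 0.00332) and Krt19 (0.79 ± 0.20, adjusted p = 0.0336).

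**Figure D4:**
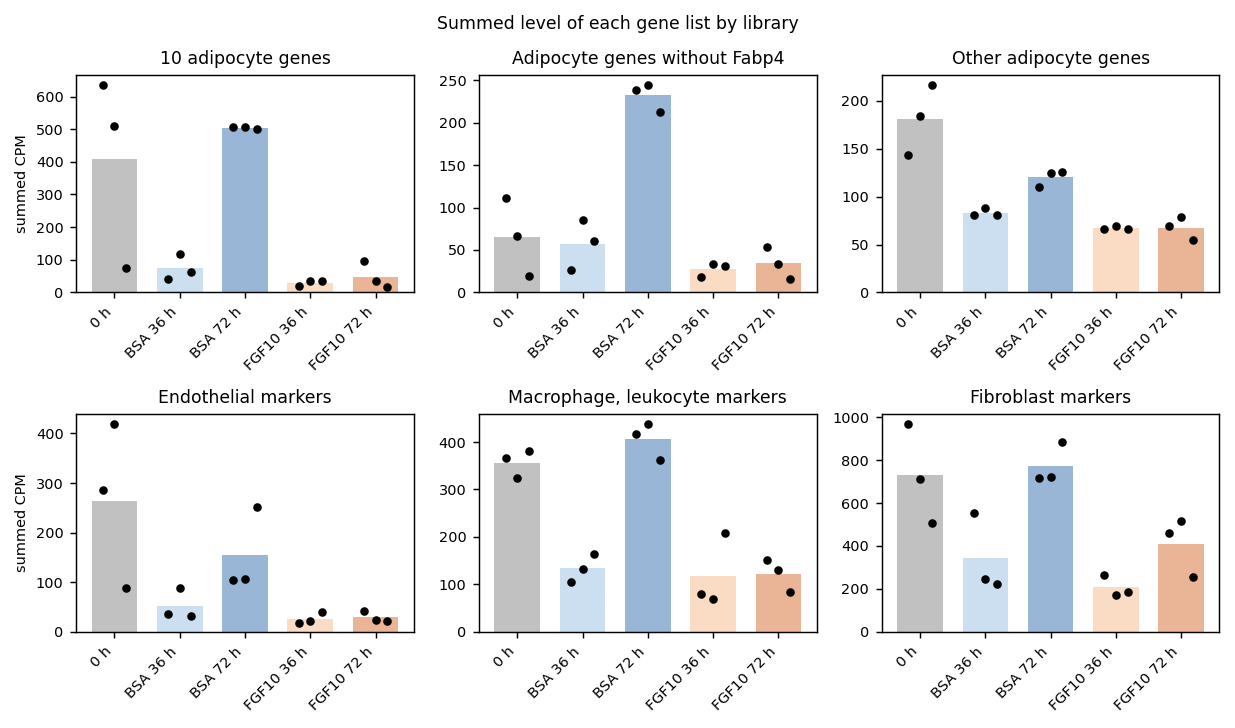
Summed CPM of the adipocyte genes, with and without Fabp4, and of 4 other lists, with 1 point per library and a column at the group mean, each panel starting at 0 on its own scale. BSA 72 h stands above both FGF10 groups in all 6 panels, and the highest 0 h library lies above the lowest BSA 72 h library in 5 panels, the exception being the adipocyte genes without Fabp4.

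**Figure D5:**
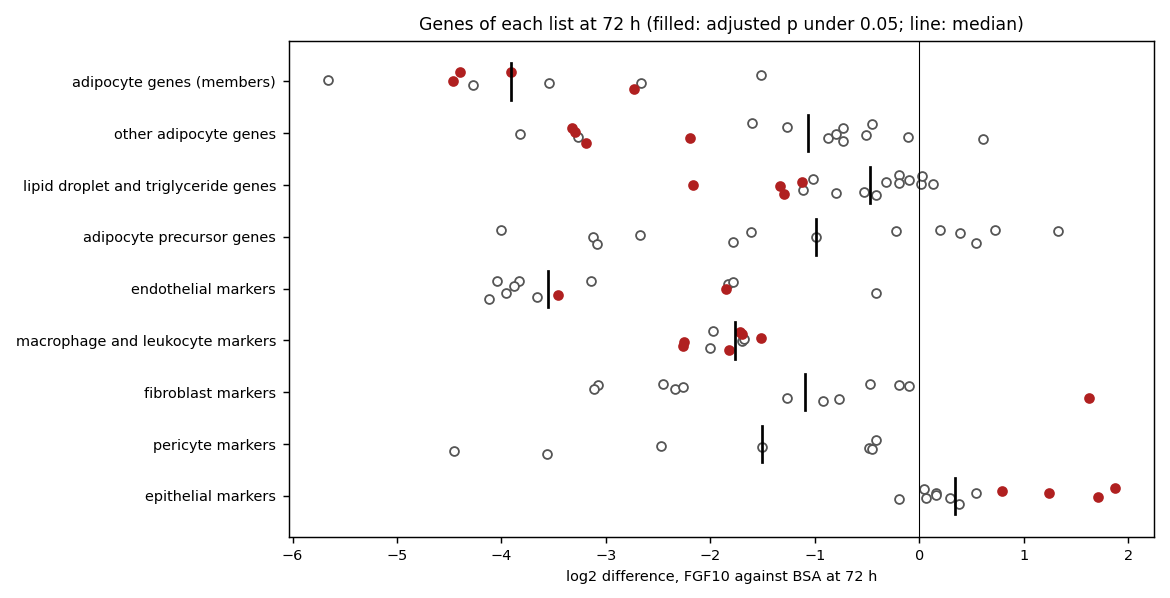
Log2 difference of each tested gene of 9 lists for FGF10 against BSA at 72 h, with 1 point per gene, filled where the adjusted p was under 0.05, and a line at the list's median. The medians run from -3.91 for the adipocyte genes and -3.56 for the endothelial markers to 0.34 for the epithelial markers.

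Across the 15 libraries, the genes whose level went most like the mean centred log2 CPM of the 10 adipocyte genes were Nnmt (Pearson r = 0.917), Upk1a (0.913), Col5a3 (0.905), Aplnr (0.882), Fam167b (0.881), Col15a1 (0.875), Cpxm1 (0.873), Nrros (0.871), Lmo2 (0.866) and Pmp22 (0.866), out of 12956 genes compared. These coefficients describe the libraries, which share depth and group, and carry no test. Nnmt, a methyltransferase abundant in fat and liver, was at 6.64 ± 1.41 CPM with BSA at 72 h and 1.92 ± 1.70 at 0 h, and at 0.451 ± 0.677 CPM or less on average in the other 3 groups. Aplnr, the apelin receptor of endothelium, was at 8.22 ± 4.99 CPM with BSA at 72 h, 4.49 ± 3.36 at 0 h and 0.920 ± 1.59 with FGF10 at 72 h, where its 43 counts lay in a single library. Lmo2, a regulator of blood and endothelial cells, was at 13.6 ± 7.31 CPM with BSA at 72 h and 1.19 ± 1.36 with FGF10.

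Fabp5, the closest relative of Fabp4, is widely used in epithelium and is 1 of the precursor genes listed above. Its level is given because fragments shared between copies are not counted. It was at 21.4 ± 15.4 CPM at 0 h, and at 72 h at 514 CPM on average with FGF10 and 205 with BSA (log2 difference 1.33 ± 0.63, adjusted p = 0.228). The 0 h mean of Fabp5 was the lowest of its 5 group means, whereas that of Fabp4 was the highest. Shared fragments would be lost from both genes, so these levels cannot show whether Fabp4 lost any.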

How the data were processed

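RNA was sequenced from 15 libraries of wild-type mouse mammary organoids in 5 groups of 3, made with a stranded mRNA kit, per the labels' protocols. The authors deposited raw fragment counts in 1 table written by featureCounts 2.0.1, by exon and gene name, without regard to strand and leaving out fragments of several places or genes, per the file headers. The submitters' processing notes list GRCm39, HISAT2 2.2.1, cutadapt 1.9.1, FastQC, DESeq2 and HTSeq, the last where the headers name featureCounts. Reads of an antisense partner could not be told apart under this counting.

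Genes were filtered with filterByExpr of edgeR 4.0.16 in R 4.3.3 (minimum count 10, minimum total 15), which kept 18140 of 54456 genes and removed 36316. After TMM scaling, counts were tested with edgeR's quasi-likelihood F test (robust) in 1 fit of 5 groups (10 residual degrees of freedom, median prior 5.03, common biological coefficient of variation 0.234), with calls at an adjusted p (Benjamini-Hochberg, over all tested genes) under 0.05 in each of 9 contrasts. CPM is the count scaled by the TMM library size, RPKM divides it by the deposited exon length, and a standard error is the log2 difference divided by the root of F. A gene at 0 counts in a group was given as a bound at 3 counts over that group, and for 1 to 3 counts a 95% exact interval of the ratio was given, both covering counting error only, as the reads carry no molecular tags. The code was tested on simulated data.

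All 10 adipocyte genes are named in each bead comparison and over time with BSA. From each other list, up to 4 called genes with the smallest p for FGF10 against BSA at 72 h are named, otherwise the 2 most abundant. Genes most like the 10 were ranked by Pearson correlation of log2 CPM (prior count 2, mean of at least 1 CPM), leaving out predicted names. The genes and lists were chosen with earlier results of these data known. Alternatives were DESeq2 size factors, no filter, the Wald test of DESeq2 1.42.0, the replicate numbers as a block, only the groups compared, BSA 72 h replicates 2_1 and 2_2 summed, and each library left out in turn. Of the gene names, 17 lie on several chromosomes, none of them among the 10.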

Additional observations from a re-analysis of the deposited data

How the results depend on the processing

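The 9 tested genes in 9 contrasts give 81 gene results. Under 21 alternative settings 1542 of their 1701 values kept direction and side of the threshold, 82 lost a call, 36 gained one and 41 changed sign, and 24 results held in every setting. For 51 of the 81 (every tested gene between the beads at 36 h and 72 h, in the change between these times and with BSA at 72 h against 36 h and 0 h, and the called genes elsewhere) 956 of 1071 values kept both, 82 lost a call, 20 gained one and 13 changed sign. DESeq2 size factors left each count of called adipocyte genes as it was. For FGF10 against BSA at 72 h (4 of 9 called), a fit of only these 2 groups called 8, where it called 5064 genes in all against 1087, and summing BSA 72 h replicates 2_1 and 2_2 left 1. At 36 h (1 called) a fit of only these 2 groups called 0. For BSA at 36 h against 0 h (1 called) the count was 0 with no filter and with only the groups compared, and 2 with DESeq2. For BSA at 72 h against 0 h (5 called) it was 3 with no filter and 3 with DESeq2, which gave Adipoq an adjusted p of 0.0899. For FGF10 at 72 h against 0 h (2 called) it was 4 with DESeq2 and 1 with no filter, with only the groups compared, with 2_1 and 2_2 summed and with the replicate block. For BSA at 72 h against 36 h (1 called) it was 0 with no filter or with 2_1 and 2_2 summed, 5 with only the groups compared, and 2 with the replicate block, which were Cidec (adjusted p = 0.0299) and Cfd (0.00839) and not Adipoq (0.0503). The cause of these shifts was not tested.

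Leaving out 1 library at a time gave 0 to 5 called for FGF10 against BSA at 72 h, 0 to 1 at 36 h and 0 to 0 for the change between them. It gave 0 to 2 for BSA at 36 h, 3 to 5 for BSA at 72 h, 2 to 3 for FGF10 at 36 h and 0 to 3 for FGF10 at 72 h, each against 0 h, and 0 to 3 with BSA and 0 to 0 with FGF10 for 72 h against 36 h. Over all settings the adjusted p for FGF10 against BSA at 72 h ran from 0.00847 to 0.356 for Adipoq (call kept in 11 of 21), from 0.0150 to 0.140 for Plin1 (13), from 8.8e-08 to 0.0609 for Lpl (20) and from 0.00184 to 0.0916 for Lep (16).

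The 13 signs that turned among these 51 results were of genes that passed in neither fit. For FGF10 against BSA at 36 h, leaving out 1 library at a time moved the log2 difference from -3.80 to 1.89 for Adipoq (above 0 without BSA 36 h replicate 2), from -1.85 to 4.69 for Cidec and from -3.52 to 6.65 for Cfd (both below 0 without FGF10 36 h replicate 1). For BSA at 72 h against 0 h it moved it from -0.83 to 0.13 for Fabp4 and from -1.04 to 2.04 for Cfd (both above 0 without 0 h replicate 1), and with the replicate block Fabp4 had 0.56, Cd36 -0.067 and Cfd 2.16. For the change of the FGF10 effect from 36 h to 72 h it moved it from -0.67 to 0.22 for Pparg (above 0 without BSA replicate 1 or FGF10 replicate 3 of 36 h, or without FGF10 72 h replicate 4, at 0.033, 0.22 and 0.11), from -8.31 to 0.048 for Plin1 (above 0 without FGF10 36 h replicate 4) and from -0.94 to 2.99 for Lep (below 0 without FGF10 72 h replicate 2).

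The labels give the groups shared replicate numbers. Of 21 pairs of libraries with the same number, 9 had deviations that correlated over 0.1 (-0.158 to 0.449). Of 69 pairs with different numbers 10 did (-0.293 to 0.202), and 9 of 15 libraries correlated best with their own number. Libraries of 1 number were thus more often alike, but the labels do not say that the numbers pair the samples. The main fit left the numbers out, and they entered as a block in an alternative. With the replicate block 4 genes were called for FGF10 against BSA at 72 h, 3 of them as before, and 1 at 36 h, with Adipoq at 72 h at an adjusted p of 0.0625. Against 0 h the block also lost Pparg with BSA at 72 h (log2 difference 1.10, adjusted p = 0.0934), Lpl with BSA at 36 h (0.0762), Cd36 with FGF10 at 36 h (0.0628) and Cfd with FGF10 at 72 h (0.0568), while Cfd was called lower with BSA (0.00146) and with FGF10 (0.0303) at 36 h. Depth limits the genes with few counts, among them Retn, Lep, Cidec and Cfd, for which a library at 0 still allows up to 3 counts.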
